A study of Sparassis latifolia with 18 samples.

Results

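Mycelium of the edible brown-rot fungus Sparassis latifolia that had been with pine sawdust for 10 d was compared directly with mycelium that had been with it for 1 h. All genes of the FPKM table entered, with T-10d-1, T-10d-2 and T-10d-3 against T-1h-1, T-1h-2 and T-1h-3, so 6 of the 18 libraries and 1100 of its 1100 genes. The strain SP-C was grown in liquid medium with potato, glucose and fish peptone, and pine sawdust, fresh and sterilized, went into the cultures at staggered times ahead of a single harvest, which is called pine sawdust inducing (PSI). The 10d cultures were thus harvested after 10 d with sawdust and the 1h cultures after 1 h. Time with sawdust cannot be told apart here from the age of the culture at contact or at harvest. The other 4 groups, CK with no time of PSI and 6h, 1d and 5d, had 3 libraries each and are used here only to place the 2 end points. All groups were the same strain in the same medium, and no gene was altered in any of them. The study left T-1h-3 out of further analysis for its correlation with the other libraries, but describes the clustering behind its co-expression modules on 18 libraries. Each result below is given with all 6 libraries and, where the call changes, without T-1h-3.

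Brown-rot fungi take sugars out of the cellulose and hemicellulose of wood while leaving most of the lignin behind as a modified residue. They do so with small oxidants made by the hyphae, in which oxalate, iron and hydrogen peroxide take part, and with secreted hydrolases, and sugars released from the wall enter the cell through transporters of the major facilitator superfamily. Fresh conifer wood also brings resin acids, terpenes, phenols and fats, which fungi take apart with monooxygenases, dioxygenases, dehydrogenases, lipases and the fatty acid oxidation of the peroxisome.

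The table gives FPKM values, fragments scaled by the authors to transcript length and to the mapped fragments of the library. Of its genes, 985 carry EVM identifiers of the genome and 115 are newly assembled genes. How these genes were chosen is not given in the sources used here, so counts and shares below describe this table and not the genome. With limma on log2(FPKM + 1), 1034 genes were tested, those that reached an FPKM of 1 in 3 or more of the 6 libraries, and 66 did not. Calls needed more than a 2-fold change and a Benjamini-Hochberg adjusted p below 0.01. Adding 1 before the logarithm makes a log2 fold change of a weakly expressed gene smaller than its ratio, and folds are ratios of mean FPKM. All adjusted p values are from limma and over all tested genes. The study calls the 3 libraries of a group biological replicates. Neither it nor the labels say whether they came from separate cultures, so the p values measure the spread between these libraries. Values are from RNA of whole mycelium, in which fewer cells of a kind and less RNA per cell cannot be told apart.

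At 10d, 201 genes were higher (19.4% of those tested) and 304 were lower (29.4%), so 48.8% of the tested genes were called between first contact and the late time. In all 201 and all 304 the 3 values at 10d lay beyond the 3 values at 1h, which the test favours, and over all tested genes every 10d library lay above every 1h library in 34.6% and below in 48.5%. The median absolute log2 fold change was 1.40 in the higher and 1.57 in the lower genes. Changes beyond a log2 value of 2 were found in 31 higher and 74 lower genes, and beyond 3 in 6 and 8. A further 197 genes passed the adjusted p with less than a 2-fold change, 90 of them higher and 107 lower, and 10 genes had a larger fold but did not pass the adjusted p. The unadjusted p was under 0.05 in 846 genes.

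**Figure D1:**
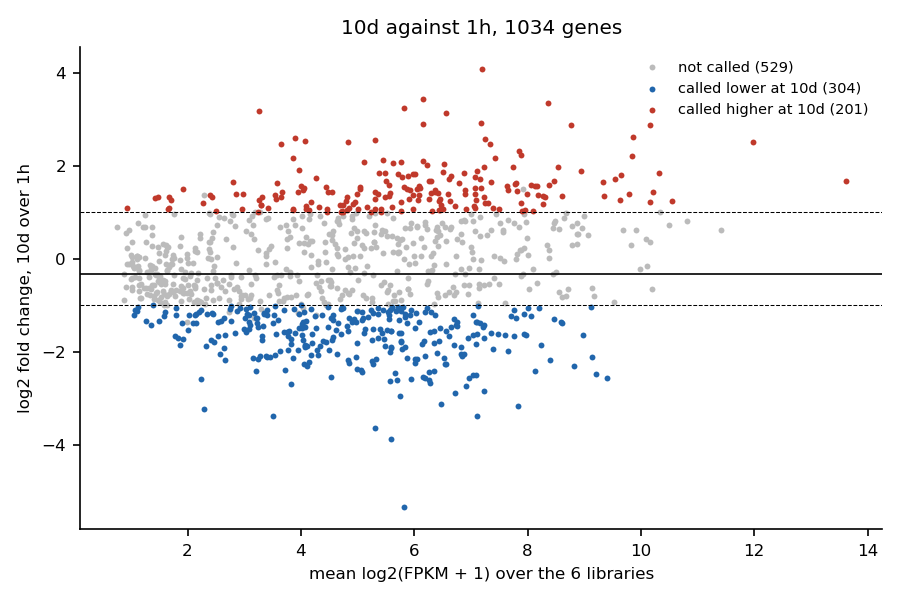
Each point is 1 of the 1034 tested genes, with the mean log2(FPKM + 1) over the 6 libraries on the x axis and the log2 fold change of 10d over 1h on the y axis. Red points are the 201 genes called higher at 10d and blue points the 304 called lower, the dashed lines mark the 2-fold threshold, and the full line at -0.33 is the median of all tested genes, below 0.

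The median log2 fold change of all tested genes was -0.33. With library medians made equal it was -0.06, and 260 genes were then higher (25.1%) and 216 lower (20.9%), so the share of calls that were higher moved from 39.8% to 54.6%. With quantile normalization 235 were higher and 212 lower. Equal medians kept all 201 higher genes and 216 of the 304 lower genes, and no gene that was called changed direction. The 88 lower genes that lost the call this way had log2 fold changes from -1.39 to -1.01. Which direction held more genes thus depended on the scaling.

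The highest genes took a larger share of the table at 10d. The 10 genes with the highest FPKM held 19.3% to 20.3% of the summed FPKM of the table at 1h and 34.7% to 35.5% at 10d. That sum was itself 103912 to 112277 at 1h and 145948 to 148824 at 10d. EVM0003720, which has no annotation in the sources used here, was the highest gene in all 6 libraries. Its FPKM was 5871, 6964 and 8541 in T-1h-1, T-1h-2 and T-1h-3 and 22558, 22285 and 21948 in the 10d libraries, with no overlap. In CK it was at 17391, 10264 and 10218, above all 1h and below all 10d values, so the fold includes a low level at 1h. Its log2 fold change was 1.66 ± 0.27 (SE, n = 3 and 3, limma adjusted p = 0.00079). Quantile normalization gives this gene no fold change by construction, because it holds the top rank in every library. By level, 78 of the 254 genes with a mean FPKM over 100 were higher and 72 lower. Of the 221 genes between 5 and 20, 31 were higher and 85 lower, of the 349 between 20 and 100, 82 and 121, and of the 210 genes up to 5, 10 and 26. With equal medians these counts were 98 and 62 over 100, 100 and 86 from 20 to 100, 47 and 59 from 5 to 20, and 15 and 9 up to 5, so the larger direction turned in the classes up to 5 and from 20 to 100.

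T-1h-3 lay nearer to the 10d libraries than its partners did. Its Pearson r with the 10d libraries, over the tested genes on the log scale, was 0.873 to 0.876, against 0.859 to 0.861 for T-1h-2 and 0.836 to 0.840 for T-1h-1. Within 1h, T-1h-1 and T-1h-2 had an r of 0.989, T-1h-2 and T-1h-3 of 0.985, and T-1h-1 and T-1h-3 of 0.966, while the 10d libraries had 0.995 to 0.996 with each other. Genes are not replicates, so these correlations are given as a description.

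Without T-1h-3, 204 genes were higher (19.7%) and 332 lower (32.1%). The same 186 genes were called higher in both fits, which is 92.5% of the higher calls with T-1h-3 and 91.2% of those without it. For lower genes 295 were shared, 97.0% and 88.9%. So 24 calls were lost and 55 gained, and 0 turned direction. In the 204 genes called higher without it, a fit that did not use T-1h-3, this library lay above both other 1h libraries in 121, below both in 48 and between them in 35. In the 332 called lower it lay below both in 201, above both in 97 and between them in 34. Over all tested genes it was above both in 396 and below both in 483. It still stood on the 1h side of every 10d library in 203 of the 204 higher genes and in 322 of the 332 lower ones.

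**Figure D2:**
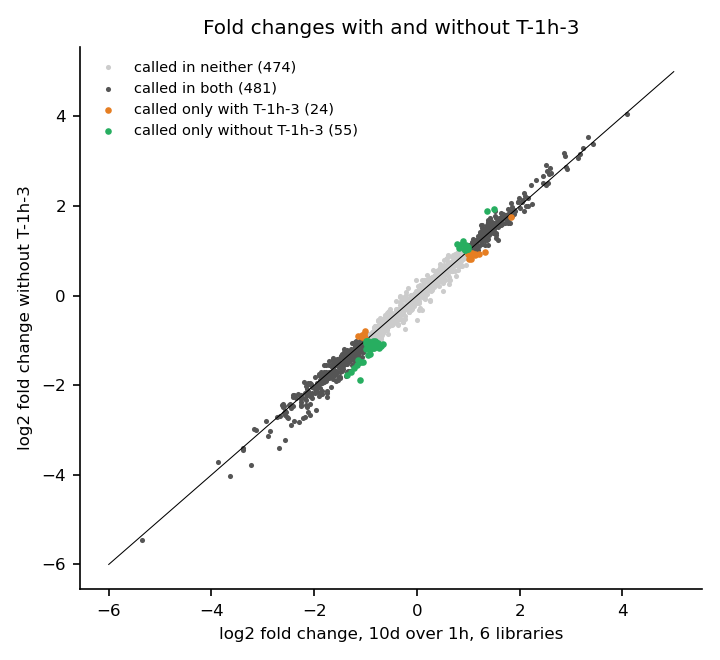
Each point is 1 tested gene, with the log2 fold change of 10d over 1h from all 6 libraries on the x axis and without T-1h-3 on the y axis, and the line marks equal values. The 481 genes called in both fits lie along the line, and the 24 called only with T-1h-3 and the 55 called only without it lie close to the 2-fold threshold, apart from a few with a wide spread at 1h.

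The genes with the largest fold changes among calls lost or gained without T-1h-3 are given next. EVM0005606, with the BAG domain of Hsp70 co-chaperones, was at 110, 131 and 67.1 at 1h and at 204, 254 and 230 at 10d. Its log2 fold change was 1.20 with T-1h-3 and 0.92 without it, where it stayed under 2-fold although the adjusted p was 0.00015. EVM0003962, with no annotation, behaved alike, with 21.9, 21.4 and 9.84 at 1h and 40.8, 42.1 and 47.4 at 10d. In both, T-1h-3 was the low library at 1h. The call of EVM0003962 was also lost without any of the 10d libraries (adjusted p from 0.014 to 0.016), and that of EVM0005606 without T-10d-2 (0.013) or T-10d-3 (0.011). EVM0009042 was at 15.96, 76.2 and 29.7 at 1h and at 113, 120 and 129 at 10d, and its adjusted p went from 0.0090 to 0.012. Its spread at 1h lay mostly between T-1h-1 and T-1h-2. Leaving out any of the 10d libraries also ended its call, with adjusted p from 0.031 to 0.032.

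On the other side, EVM0013101 was at 51.0, 220 and 259 at 1h and at 471, 328 and 442 at 10d. It was not called with T-1h-3 (adjusted p = 0.039) and was called higher without it (log2 fold change 1.93, adjusted p = 0.0073), although T-1h-2 was then almost as far from T-1h-1 as T-1h-3 is. EVM0011948 had the same form at a low level, with 0, 3.42 and 5.41 at 1h and 8.57, 5.72 and 6.49 at 10d. EVM0007697 was at 8.79, 6.24 and 2.62 at 1h and at 2.25, 1.60 and 0.806 at 10d, and its log2 fold change was -1.36 with T-1h-3 and -1.76 without it. In this gene T-1h-3 was close to the highest 10d library.

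Annotation came from the study's lists of genes that changed at every time and of genes of one co-expression module that changed at 10d. From these, 68 genes were put into 18 functional groups, of which 52 genes were in the table and all 52 were tested. Of the 52, 37 were higher at 10d, 6 were lower and 9 were not called, with a median log2 fold change of 1.52 against -0.33 over all tested genes. This is no independent evidence of direction, because most of these genes were chosen by the study for a high level at 10d in the same libraries. Without T-1h-3, 35 were higher and 7 lower, and with equal medians 39 and 3. Over all tested genes 19.4% were higher and 29.4% lower, while of the 83 tested genes in the module list 75 were higher. Counts by group below are therefore not read as traits of the groups.

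**Figure D3:**
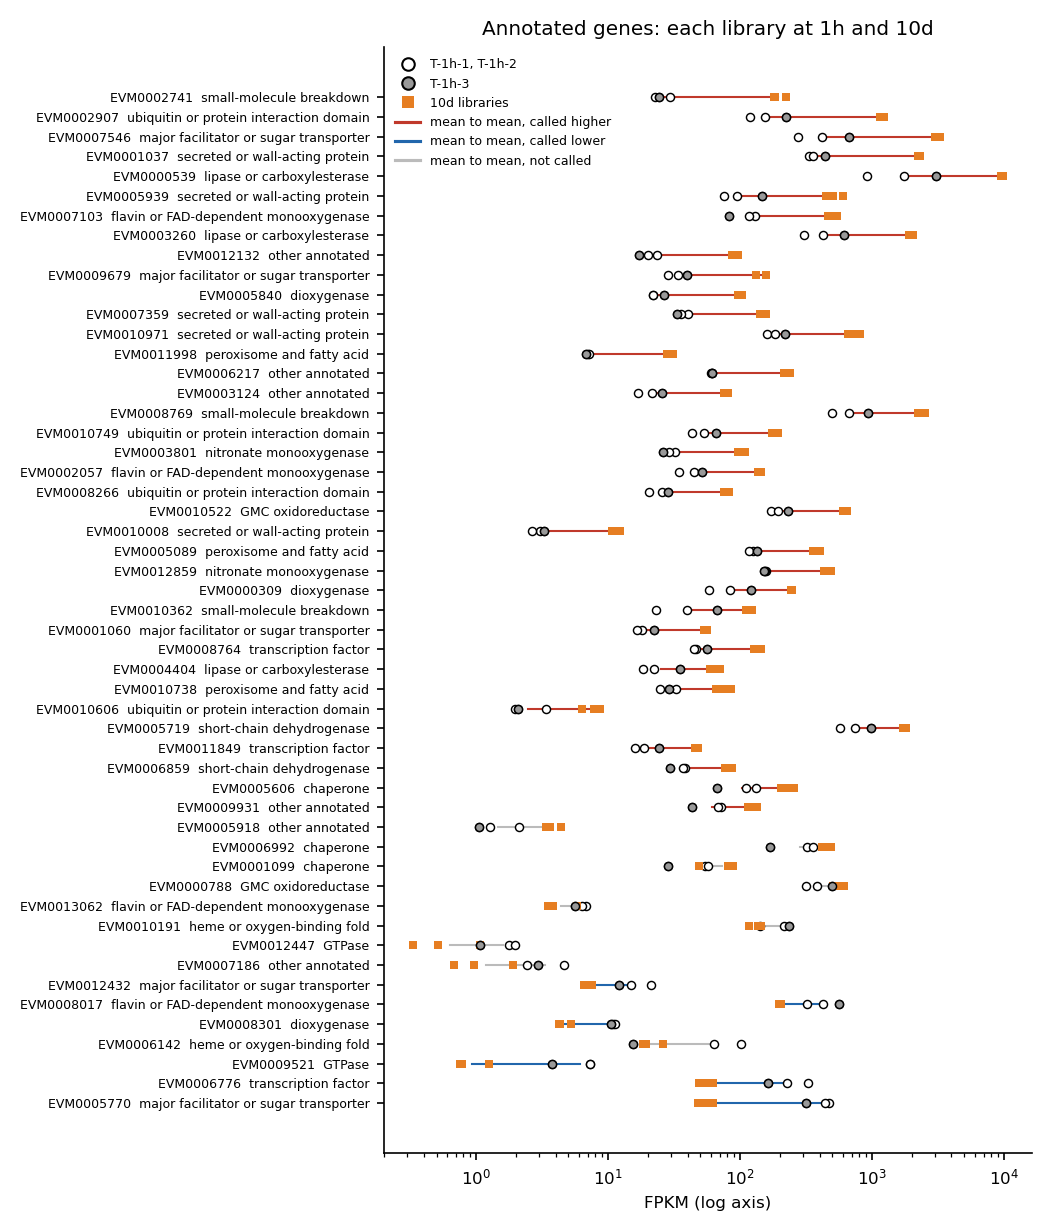
Each line of points is 1 of the 52 annotated genes in the table with its functional group, ordered by log2 fold change, and the x axis is FPKM on a log scale. White and grey circles are the 1h libraries, grey for T-1h-3, orange squares are the 10d libraries, and the coloured line joins the means, red for the 37 genes called higher at 10d and blue for the 6 called lower. In many of the red genes the grey circle is the 1h value nearest to 10d.

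Among enzymes that oxidize small molecules, both nitronate monooxygenase genes were higher at 10d. These flavin enzymes turn nitronates, the ionized form of nitroalkanes, into carbonyl compounds and nitrite. EVM0003801 was at 32.0, 29.1 and 26.2 at 1h and at 98.5, 108 and 96.0 at 10d (log2 fold change 1.76 ± 0.11, SE, limma adjusted p = 8.8e-06). EVM0012859 was at 158, 154 and 151 at 1h and at 430, 489 and 467 at 10d, a log2 fold change of 1.57 ± 0.10. The 1h values of this pair were tight, T-1h-3 included, and leaving it out gave 1.69 and 1.56.

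The primers that the study designed for quantitative PCR are the only sequence of these transcripts in the sources used here, and they are shown for the nitronate monooxygenase pair and for 2 genes of the peroxisome group below, forward (F) and reverse (R), to identify which transcripts the values belong to. For the genes it selected, these included, the study reports a similar pattern by quantitative PCR and by RNA-seq. The primers were not used to make the FPKM values.
EVM0003801 F: ccgtgcgcactctcatctat
EVM0003801 R: tcgttaatagagccggcgac
EVM0012859 F: atacgccctctcccttcagt
EVM0012859 R: gcaacgaaaccacagccaat
EVM0011998 F: tgccttctaagctggtcgtg
EVM0011998 R: tgtcgaacgaaatcctgcca
EVM0005719 F: gacgtcagagacccaaagca
EVM0005719 R: ttgaacccgttctcggacag

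Of the 6 flavin or FAD-dependent monooxygenase genes, 4 were in the table, with 2 higher, 1 lower and 1 not called. EVM0007103 was at 130, 117 and 83.1 at 1h and at 468, 527 and 544 at 10d, a log2 fold change of 2.23 ± 0.17. In CK it was at 77.7, 223 and 227, so CK-2 and CK-3, but not CK-1, lay above all 1h values. EVM0002057 was at 34.3, 44.9 and 51.8 at 1h and at 138, 139 and 144 at 10d. The opposite held for EVM0008017, at 324, 424 and 559 at 1h and 202, 198 and 206 at 10d (log2 fold change -1.07 ± 0.19, limma adjusted p = 0.0013). This call depended on T-1h-3, which was its highest 1h library: without it the value was -0.87 and the gene was not called. With equal medians it was -0.80 and again not called. EVM0013062 overlapped between the groups, with a log2 fold change of -0.45 and a 95% interval from -0.90 to -0.01.

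GMC oxidoreductases include the alcohol and sugar oxidases that give brown-rot fungi their hydrogen peroxide. EVM0010522 was at 171, 192 and 232 at 1h and at 623, 651 and 602 at 10d, and the log2 fold change was 1.66 ± 0.13 (limma adjusted p = 2.4e-05). EVM0000788 was at 318, 383 and 494 at 1h and at 608, 507 and 576 at 10d. It was not called, with a log2 fold change of 0.52 and a 95% interval from 0.11 to 0.93, and T-1h-3 lay just under the lowest 10d library.

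All 3 genes of the dioxygenase group were called, 2 higher and 1 lower. EVM0000309, a homogentisate 1,2-dioxygenase that opens the aromatic ring in the breakdown of phenylalanine and tyrosine, was at 58.3, 84.0 and 121 at 1h and at 242, 248 and 242 at 10d. EVM0005840, of the carotenoid-cleaving oxygenase family, was at 21.8, 22.0 and 26.4 at 1h and at 103, 101 and 96.5 at 10d, a log2 fold change of 2.06 ± 0.11. Its CK values of 57.5, 27.8 and 27.2 lay above all 1h and below all 10d values. The TauD/TfdA-family gene EVM0008301 was lower, at 10.9, 11.3 and 10.5 at 1h and 5.24, 4.23 and 4.34 at 10d. Its log2 fold change of -1.09 was kept without T-1h-3 but was -0.82 with equal medians and -0.61 with quantile normalization, not called in either. Neither cytochrome P450 gene of the lists was in the table.

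Genes for the breakdown of other small molecules were higher in all 3 cases that were in the table. EVM0002741, which holds a DUF4387 domain and is annotated to the utilisation of acyclic terpenes, had one of the 8 largest increases. It was at 29.2, 22.5 and 24.5 at 1h and at 183, 223 and 180 at 10d, 7.69-fold (log2 fold change 2.89 ± 0.14, limma adjusted p = 3.4e-06). EVM0008769, with the EthD domain first known from bacterial ether degradation, was at 498, 670 and 925 at 1h and at 2225, 2536 and 2494 at 10d. The oxalate decarboxylase gene EVM0010362, which turns oxalate into formate and CO2, was at 22.9, 39.7 and 66.7 at 1h and at 112, 110 and 124 at 10d. Its spread at 1h was wide, and the log2 fold change was 1.52 ± 0.33 with T-1h-3 and 1.89 without it, called both times. Without T-1h-2, T-10d-1, T-10d-2 or T-10d-3 it was 1.47 to 1.55 and not called, with limma adjusted p from 0.014 to 0.017.

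In the group of peroxisome and fatty acid genes, 4 of 4 in the table were higher at 10d. Catalase, which splits hydrogen peroxide and is the classic marker enzyme of peroxisomes, was encoded by EVM0011998. It was at 7.07, 7.19 and 6.82 at 1h and at 28.8, 31.2 and 28.1 at 10d, 4.18-fold (log2 fold change 1.92 ± 0.11, limma adjusted p = 6.0e-06). In CK this gene was at 18.9, 14.6 and 15.8, above its 1h and below its 10d values, so the fold includes a low level at 1h. EVM0005089, with the MaoC domain of peroxisomal dehydratases in fatty acid oxidation, was at 126, 116 and 134 at 1h and at 359, 405 and 388 at 10d. The thioesterase-superfamily gene EVM0010738 had a log2 fold change of 1.35 and EVM0005719, which is also among the short-chain dehydrogenases, of 1.22. EVM0005719 was at 571, 743 and 975 at 1h and at 1715, 1806 and 1708 at 10d. The other short-chain dehydrogenase gene in the table, EVM0006859, was at a far lower level, 38.0, 37.2 and 29.3 at 1h and 76.9, 86.3 and 82.0 at 10d, with nearly the same log2 fold change of 1.21. The catalase values did not spread at 1h, while those of EVM0005719 did, with T-1h-3 highest. Quantile normalization ended the call of EVM0005719 (log2 fold change 0.57), which left 3 of 4 peroxisome and fatty acid genes and 1 of 2 short-chain dehydrogenase genes called higher.

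All 3 lipase or carboxylesterase genes were higher at 10d and shared a wide spread at 1h. EVM0000539 encodes a class 3 lipase, and lipases free the fatty acids of stored or foreign fat. It was at 920, 1750 and 3031 at 1h and at 9758, 9428 and 9737 at 10d. The fold was 5.07 and the log2 fold change 2.51 ± 0.40 (limma adjusted p = 0.00079), and without T-1h-3 it was 2.92. With quantile normalization it was not called (1.11, limma adjusted p = 0.066). EVM0003260, a GDSL-type esterase annotated to carbohydrate esterase family 16, was at 303, 422 and 609 at 1h and at 1902, 2001 and 2048 at 10d. EVM0004404, with an alpha/beta hydrolase fold, was at 18.4, 22.2 and 35.2 at 1h and at 70.6, 58.8 and 66.3 at 10d. T-1h-3 was the highest 1h library in each of the 3 genes and still below every 10d library.

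The 5 genes for secreted or wall-acting proteins in the table were higher too, with log2 fold changes from 1.65 to 2.61. EVM0007359 belongs to glycoside hydrolase family 28, whose members cut pectin. It was at 40.4, 35.4 and 33.2 at 1h and at 142, 156 and 149 at 10d, 4.10-fold. The cerato-platanin gene EVM0010971, of a family of small proteins that filamentous fungi secrete, was at 161, 184 and 219 at 1h and at 761, 652 and 804 at 10d. EVM0001037, similar to a glutaminase of Aspergillus oryzae, was at 334, 356 and 440 at 1h and at 2296, 2318 and 2250 at 10d. EVM0010008, an aspartyl protease gene, was low throughout, at 3.04, 2.63 and 3.25 at 1h and 12.3, 11.3 and 10.6 at 10d. Its CK values of 8.34, 5.75 and 5.62 lay above all 1h and below all 10d values. None of the 5 had overlapping groups, as in the 34.6% of tested genes with every 10d library above every 1h library.

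Transporters of the major facilitator superfamily moved both ways, with 3 higher and 2 lower of the 5 in the table. EVM0007546, annotated as a high-affinity glucose transporter, was at 274, 419 and 664 at 1h and at 2977, 3278 and 3048 at 10d, 6.85-fold (log2 fold change 2.87 ± 0.30, limma adjusted p = 8.0e-05). In CK it was at 1903, 675 and 668, above all 1h and below all 10d values, with CK-2 and CK-3 only just above T-1h-3. EVM0009679, annotated as a polyamine transporter, was at 28.4, 33.7 and 39.3 at 1h and at 131, 156 and 157 at 10d. EVM0005770, a general substrate transporter by annotation, was lower by about the same factor as the glucose transporter was higher. It was at 475, 439 and 317 at 1h and at 62.6, 55.5 and 48.1 at 10d (log2 fold change -2.85 ± 0.18, limma adjusted p = 7.8e-06). EVM0012432, annotated as a maltose permease, was at 21.2, 14.9 and 12.0 at 1h and at 7.34, 6.59 and 7.51 at 10d, and its call was lost with equal medians (-0.76), with quantile normalization (-0.60) and without T-1h-1 (-0.82), T-10d-1 (-1.05) or T-10d-2 (-0.98).

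Regulators were fewer. EVM0006776, a transcription factor of the TEA/ATTS domain family, was at 325, 226 and 163 at 1h and at 54.3, 62.3 and 48.8 at 10d (log2 fold change -2.04 ± 0.24, limma adjusted p = 0.00014). EVM0008764, with a C2H2 zinc finger, was at 46.0, 45.0 and 56.3 at 1h and at 145, 127 and 139 at 10d. EVM0011849, a homeobox gene, was at 16.1, 18.6 and 24.4 at 1h and at 48.3, 45.4 and 46.1 at 10d. Of these 3 the TEA/ATTS gene alone was lower.

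Genes with domains known from ubiquitin ligases and protein interaction were higher in 4 of 4 cases, against 19.4% of all tested genes. Most annotated genes were chosen for their level at 10d, so this count is no independent evidence. The F-box gene EVM0002907 was at 119, 154 and 223 at 1h and at 1173, 1151 and 1233 at 10d, 7.17-fold (log2 fold change 2.88 ± 0.22). F-box proteins bring substrates to a class of ubiquitin ligases. The RING finger gene EVM0010749 had a log2 fold change of 1.78, the MYND finger gene EVM0008266 of 1.67 and the BTB/POZ gene EVM0010606 of 1.33.

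The 2 small heat shock protein genes, whose products hold unfolded proteins in solution, were not called. EVM0006992 was at 323, 358 and 170 at 1h and at 418, 492 and 474 at 10d. Its log2 fold change was 0.77, and the 95% interval ran from 0.14 to 1.40. EVM0001099 overlapped between the groups, at 54.0, 56.8 and 28.6 at 1h and 49.0, 80.4 and 88.9 at 10d. In both, T-1h-3 was far below its partners, and without it the log2 fold changes were 0.44 and 0.34. So the chaperone group, with the BAG-domain gene, held 1 called gene of 3 with all libraries, 0 without T-1h-3 and 2 with equal medians, where EVM0006992 was called higher (log2 fold change 1.04, limma adjusted p = 0.0051).

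EVM0006142, with the hemopexin fold, went the other way. It was at 101, 63.3 and 15.4 at 1h and at 18.3, 26.0 and 19.4 at 10d, so T-1h-3 was below every 10d library. The gene was not called with T-1h-3 (log2 fold change -1.12 ± 0.60, limma adjusted p = 0.12) and was called lower without it (-1.88, limma adjusted p = 6.1e-05). The protoglobin gene EVM0010191, for a heme protein that binds oxygen, was not called, with a log2 fold change of -0.55 and a 95% interval from -1.01 to -0.09. Of the 2 genes with a ribosome-binding GTPase domain, EVM0009521 was lower, at 7.30, 7.33 and 3.72 at 1h and 0.777, 0.753 and 1.25 at 10d, while EVM0012447 was close to the filter and not called.

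Among the other annotated genes, EVM0006217, for a GDP-mannose 4,6-dehydratase that makes a precursor of deoxysugars in the cell wall or on proteins, had one of the tightest changes. It was at 61.4, 60.1 and 61.5 at 1h and at 215, 239 and 215 at 10d (log2 fold change 1.85 ± 0.09, limma adjusted p = 3.7e-06). EVM0003124, of a family of small membrane proteolipids, was at 16.9, 21.6 and 25.5 at 1h and at 77.3, 81.3 and 75.8 at 10d. Its CK values of 50.9, 35.0 and 32.0 lay between, above all 1h values. The rhodopsin-like gene EVM0009931 was at 71.8, 68.2 and 43.0 at 1h and at 124, 116 and 133 at 10d, and its log2 fold change of 1.05 became 0.82 without T-1h-3 and 1.00 without T-10d-3, with no call in either.

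Genes that the study had found changed against CK at every time could differ between the early and the late time in size. Of the 28 of these in the table, 27 were tested, and at both 1h and 10d 11 of them lay above and 16 below the median of CK-2 and CK-3. Between 10d and 1h, 0 were higher, 10 were lower and 17 were not called, with a median log2 fold change of -0.57. Over all tested genes 29.4% were lower and the median was -0.33, so nothing particular to these genes is read from the count. Of the 11 above CK, 3 were lower at 10d, which was nearer to CK, and of the 16 below CK, 7 were lower at 10d, which was farther from CK. TEA/ATTS gene EVM0006776, at 24.5, 29.6 and 31.7 in CK, is of the first kind, and maltose permease gene EVM0012432, at 37.8 and 41.9 in CK-2 and CK-3 but at 11.2 in CK-1, of the second. Without T-1h-3 the 10 lower genes were 11, and with equal medians 5.

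Most of the largest changes were in genes with no annotation here, where annotation was read from the study's lists alone. EVM0000940 was at 409, 366 and 308 at 1h and at 7.60, 9.44 and 6.73 at 10d, 45.5-fold lower (log2 fold change -5.34 ± 0.15, limma adjusted p = 1.1e-06). EVM0006596 was at 146, 184 and 231 at 1h and at 12.1, 10.2 and 12.6 at 10d, 16.1-fold lower. EVM0009352 was at 455, 448 and 442 at 1h and at 40.9, 37.7 and 47.7 at 10d, 10.7-fold lower. The 8 largest decreases ran to a log2 fold change of -3.13 in EVM0000991. In EVM0000233, at 226, 145 and 81.3 at 1h, and EVM0005843, at 23.6, 18.6 and 5.95, T-1h-3 was the lowest 1h library but stayed far above the 10d values of 9.53, 11.1 and 10.1 and of 0.581, 0.561 and 0.628.

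In the other direction, EVM0003033 was at 37.4, 33.8 and 33.0 at 1h and at 578, 600 and 632 at 10d, 17.4-fold higher (log2 fold change 4.08 ± 0.10, limma adjusted p = 5.4e-07). EVM0005741 was at 17.0, 16.6 and 18.4 at 1h and at 168, 185 and 165 at 10d, 9.96-fold higher. EVM0007207 was at 76.8, 102 and 135 at 1h and at 1001, 1042 and 1082 at 10d. The newly assembled Sparassis_latifolia_newGene_1025 and Sparassis_latifolia_newGene_1026 had log2 fold changes of 3.43 and 3.13, and where they lie relative to other genes is not given in the sources used here, so reads shared with an overlapping gene cannot be told apart. All 16 genes with the 8 largest changes each way kept their calls without T-1h-3, as the rule for naming them required.

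Among the 4 most abundant genes called lower, EVM0012313 was at 1676, 1653 and 1585 at 1h and at 319, 248 and 267 at 10d. EVM0005474 was at 1275, 1434 and 1491 at 1h and at 255, 238 and 259 at 10d. EVM0012056 was at 891, 1265 and 1434 at 1h and at 277, 258 and 277 at 10d. EVM0005603 was at 880, 976 and 1199 at 1h and at 201, 201 and 205 at 10d. These 4 were 4.42 to 5.89 times lower at 10d. None had overlapping groups, as in the 48.5% of tested genes with every 10d library below every 1h library. The 4 had no annotation. Of the 924 tested genes in neither of the study's lists, 126 (13.6%) were higher and 293 (31.7%) lower, against 19.4% and 29.4% of all tested genes. Annotation was read from these lists alone, so genes outside them have none here.

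The other groups were placed between the 1h and 10d levels of each called gene. The groups are different cultures, so no culture was followed from one level to the other. For each gene the median of a group was placed between the mean at 1h (0%) and the mean at 10d (100%) on the log2 scale. This describes genes already called between the end points, and every position shares those 6 libraries, so no test is given. For the 201 higher genes the median position was 35.0% at 6h, 32.3% at 1d and 82.1% at 5d, and 66, 70 and 164 genes were past the midpoint. For the 304 lower genes it was 29.4% at 6h, 53.4% at 1d and 78.0% at 5d, with 78, 167 and 243 past the midpoint. So at 1d 54.9% of the lower and 34.8% of the higher genes were nearer to 10d, and at 5d 79.9% and 81.6%, a difference between directions that was not tested. With the genes called without T-1h-3 and the 14 libraries that the study kept, these shares were 49.7% and 31.9% at 1d and 77.1% and 79.9% at 5d.

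**Figure D4:**
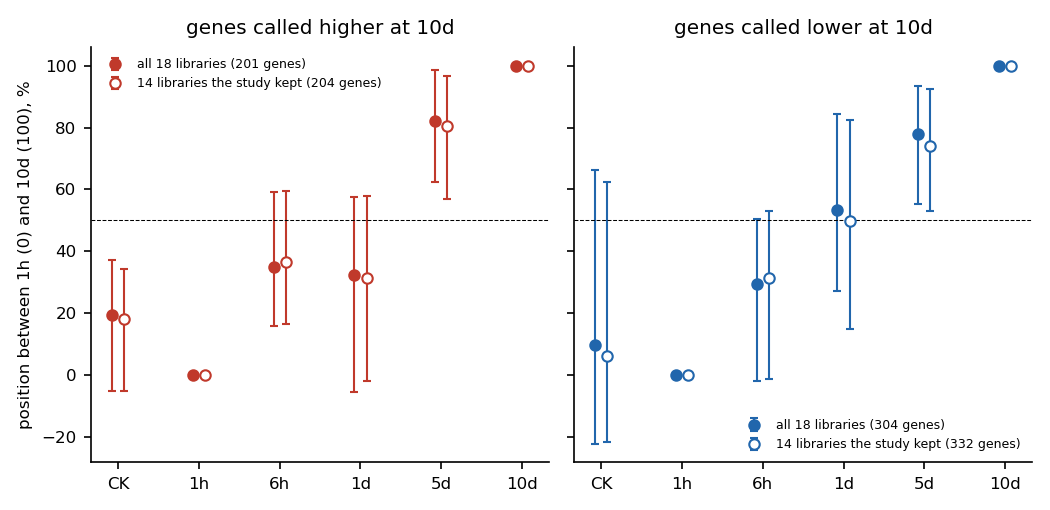
The y axis gives the position of a group between the 1h mean (0%) and the 10d mean (100%) of a gene on the log2 scale, with points at the median over genes and bars from the lower to the upper quartile. Filled points use all 18 libraries and open points the 14 that the study kept, with 201 and 204 genes in the left panel and 304 and 332 in the right. The medians at 1d are 32.3% for higher and 53.4% for lower genes, and those at 5d 82.1% and 78.0%.

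CK shows on which side of the comparison the departure lay. CK was past the midpoint, nearer to 10d, in 31 of the 201 higher genes and 96 of the 304 lower genes. In those 96 the level at 1h lay above both CK and 10d, and 79 of them were past the midpoint at 1d. In the other 208 lower genes CK was nearer to 1h, and 88 were past the midpoint at 1d and 153 at 5d. In the 170 higher genes with CK nearer to 1h, 51 were past it at 1d and 135 at 5d. On the libraries that the study kept, CK was nearer to 10d in 27 of 204 higher and 97 of 332 lower genes.

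EVM0000940 and EVM0009352 were of the kind with a passing high level. EVM0000940 was at 10.7, 8.11 and 7.37 in CK, and after its peak at 1h it was at 109, 88.9 and 110 at 6h, at 24.6, 22.8 and 15.8 at 1d and at 9.55, 11.6 and 4.14 at 5d. EVM0009352 was at 69.8, 72.2 and 68.1 in CK and was back there at 1d, with 72.2, 77.4 and 84.2. EVM0006776, the TEA/ATTS gene, was at 123, 123 and 121 at 6h and at 88.6, 79.1 and 40.2 at 1d, and its 10d values stayed above all CK values.

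Other genes were not yet lower at 6h and were low from 1d on. EVM0005779 was at 814, 791 and 737 in CK and at 1034, 994 and 988 at 6h, then at 67.4, 71.8 and 102 at 1d and 78.3, 69.5 and 78.8 at 10d. EVM0005474 was at 1679, 1620 and 1593 at 6h and at 226, 230 and 283 at 1d. EVM0012056 was at 1919, 1758 and 1797 at 6h and at 246, 244 and 297 at 1d. In these 3 genes every 6h library was above every 1h and CK library, and every 1d library was below every 6h, 1h and CK library. The transporter gene EVM0005770 differed, at 266, 230 and 90.7 at 1d and 205, 35.0 and 198 at 5d, and was lowest at 10d apart from T-5d-2.

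The higher genes also differed in the group where they were first high. EVM0003033, at 94.4, 63.2 and 68.1 in CK, was lower than that at 1h. It was at 163, 171 and 155 at 6h and at 683, 803 and 734 at 1d, above its 10d values. EVM0002510, at 57.6, 52.2 and 46.6 at 1h, was below its CK values of 210, 126 and 124 there and reached 239, 220 and 228 at 6h and 415, 398 and 381 at 10d. EVM0007207 was at 3.47, 7.88 and 61.2 at 1d, all below its 1h values but T-1d-3 only slightly so, and reached its 10d level of 1001, 1042 and 1082 only at the end.

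**Figure D5:**
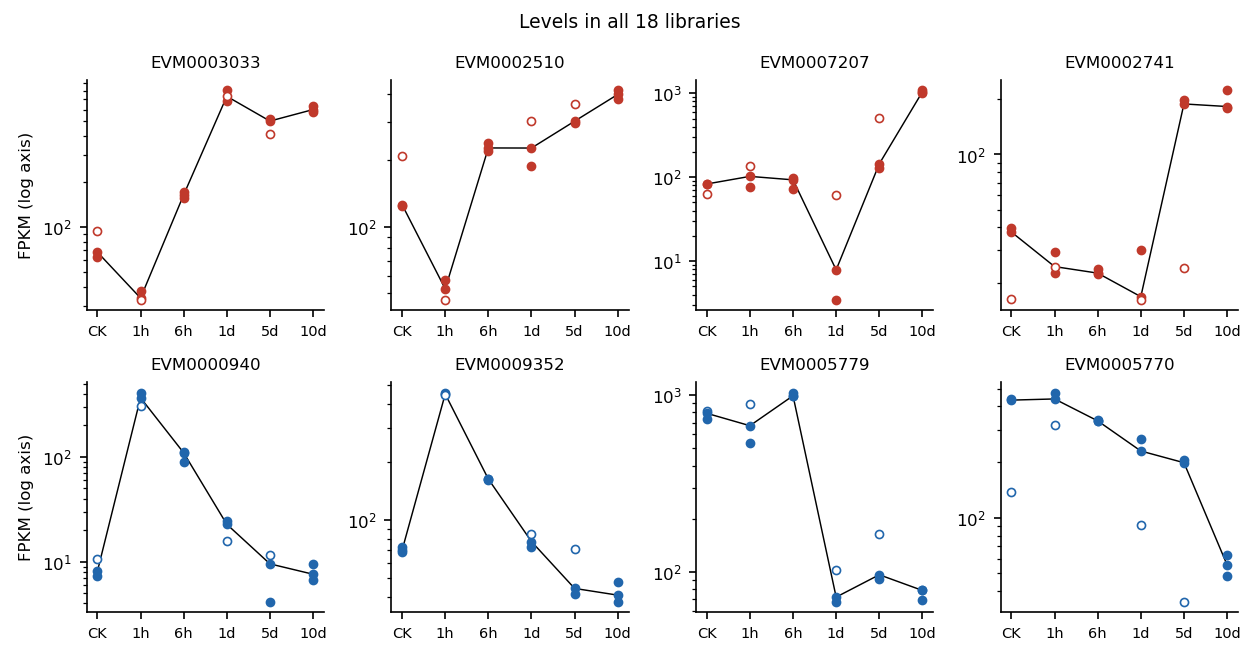
FPKM on a log axis in all 18 libraries of 4 genes called higher at 10d (red, upper panels) and 4 called lower (blue, lower panels), with the line through group medians and open circles for the 4 libraries that the study left out, 1 each of CK, 1h, 1d and 5d. EVM0000940 and EVM0009352 peak at 1h, EVM0005779 drops between 6h and 1d, and EVM0007207 and EVM0002741 are high only from 5d or at 10d.

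At 5d some of the annotated genes split by library. The terpene-utilisation gene EVM0002741 was at 198, 24.1 and 189 in T-5d-1, T-5d-2 and T-5d-3, the nitronate monooxygenase genes EVM0003801 at 93.3, 28.0 and 82.9 and EVM0012859 at 421, 124 and 399. T-5d-2 was there near the 1h level and its partners near the 10d level. In the glucose transporter gene EVM0007546, at 1559, 3689 and 1513, and the GDP-mannose dehydratase gene EVM0006217, at 66.9, 218 and 70.6, T-5d-2 was instead at the 10d level and its partners were below it. T-5d-2 is one of the libraries that the study left out. In the kept T-5d-1 and T-5d-3 the first 3 genes were near their 10d level, EVM0006217 was near its 1h level of 61.4, 60.1 and 61.5, and EVM0007546 lay between its levels at 1h and 10d. The catalase gene EVM0011998, at 23.5, 40.6 and 22.9, and the pectin-cutting hydrolase gene EVM0007359, at 109, 141 and 111, were well above all their 1h values in all 3 libraries at 5d. Others did not split, such as the GMC oxidoreductase gene EVM0010522 at 303, 294 and 298.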

How the data were processed

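RNA-seq of 18 libraries of S. latifolia mycelium was used through 1 table, and 6 libraries (10d and 1h) entered the comparison. The authors computed the FPKM values, which were taken from the deposited table unchanged. Per the study's methods, reads were cleaned, mapped with HISAT2 and assembled with StringTie, duplicates were removed and levels came from an RSEM-based method. No genome build is given in the sources used here. Bowtie 0.12.2 stands in the submitters' processing notes as well. The header names no unit, and 807 of 807 values shared with FPKM columns of the study's lists were equal, with a relative tolerance of 1e-05. Read depth cannot be had from FPKM, so no counting interval is given, and FPKM are relative to each library's total.

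limma 3.58.1 in R 4.3.3 was fitted to log2(FPKM + 1) of the 6 libraries with a variance trend (4 residual and 3.33 prior degrees of freedom), for genes that reached an FPKM of 1 in 3 or more libraries. The fit was tried on simulated independent normal values with known changes in a part of the genes and no difference in scaling between libraries. That trial does not bear on how the calls depend on scaling. Calls needed a Benjamini-Hochberg adjusted p under 0.01 and a fold over 2. Alternatives left out T-1h-3 and each other library, fitted all 18 or 14 libraries, changed the scaling, pseudocount, filter, trend or threshold, or blocked on the replicate number. Equal library medians without T-1h-3, and the course on the 14 libraries, were added after seeing the data.

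Named genes were the members of the functional groups, the 8 largest changes each way among genes called with and without T-1h-3 and with no overlap, the 4 most abundant called genes each way, the 3 losing and the 3 gaining a call without T-1h-3 with the largest change, and genes the paper names. Members and lists were chosen with earlier results of these data known. Enrichment was not tested, and 0 columns were left unmapped. Tables and figures were made with pandas 2.3.3, numpy 2.4.6 and matplotlib 3.10.9 in Python 3.11.15.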

Additional observations from a re-analysis of the deposited data

How the results depend on the processing

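Leaving out 1 library gave 188 to 204 higher and 274 to 332 lower genes, and a median log2 fold change from -0.36 to -0.29. Over every setting tried, other than equal medians and no T-1h-3 together, the counts ran from 188 to 260 and from 212 to 332, so none moved by over 1.5 times. The direction of the larger count did turn: higher genes outnumbered lower ones with equal medians (260 and 216) and quantile normalization (235 and 212). With equal medians and without T-1h-3 they were 277 and 237. Of the 65 named genes called, 54 kept their call under all 17 alternatives, and of 201 higher and 304 lower genes, 156 and 174 were called under each of the 16 that tested the same genes. The replicate numbers did not pair the libraries. The r of deviations was -0.0084, 0.0052 and 0.051 for equal numbers and ran from -0.11 to 0.12 for unequal ones. The fit with the replicate number as a block gave 200 higher and 305 lower genes. FPKM hold no depth, so low genes cannot be weighed by their counts, and equal medians or quantiles taken over a chosen set of genes need not hold for the whole transcriptome.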

Other observations

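Of the 86 newly assembled genes that were tested, 12 (13.95%) were higher at 10d and 11 (12.8%) lower, against 19.9% and 30.9% of the genes with EVM identifiers, a difference that was not tested. EVM0002866 is listed at 17.0, 23.9 and 0 at 1h and at 0 in all 3 libraries at 10d. EVM0002763 is listed at 4.59, 0 and 0 at 1h and at 0 in all 3 at 10d. Sparassis_latifolia_newGene_1364 is listed at 0 in all 3 libraries at 1h and at 0, 2.52 and 2.27 at 10d. The flavin monooxygenase gene EVM0007103 was highest at 5d in 2 libraries, at 1358, 497 and 1308 there against 468, 527 and 544 at 10d. T-5d-2 lay within its 10d values. At 6h the gene was already at 486, 532 and 517.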
